A study of Danio rerio with 2 samples.

Results

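Gluconeogenesis is the route by which the liver makes glucose from lactate, amino acids and glycerol. Most of its reactions are glycolysis run backwards, and a few irreversible steps have enzymes of their own: pyruvate carboxylase, phosphoenolpyruvate carboxykinase, fructose bisphosphatase and glucose-6-phosphatase, the last of which works inside the endoplasmic reticulum behind a glucose-6-phosphate transporter. In mammals glucagon and glucocorticoids raise, and insulin lowers, the transcription of the carboxykinase and phosphatase genes, with the coactivator PGC-1alpha (ppargc1a) and the factor FOXO1 among the proteins that act on them.

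The genes described here are those identifiers of the deposited table that carry 1 of 8 symbols, pck1, pck2, g6pc1, g6pc1a.1, fbp1a, fbp1b, slc37a4a and ppargc1a. They came to 9 of the 25939 genes, because 2 identifiers are named g6pc1. The transporter identifier is named SLC37A4 in both name sources, with the copies slc37a4b and slc37a4bl under identifiers of their own, and is called slc37a4 below. The pck2 identifier carries the symbol Pck1 in the deposited table and pck2 in the Ensembl name table, which is followed here. The genes were chosen by their place in the pathway and on the estimated counts of both libraries, with earlier results of this comparison known, so their own values are a description.

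Poly(A) RNA came from zebrafish (Danio rerio) livers on a high-fat diet, with 1 library from wild-type fish and 1 from fish labelled as ambp knockout (ambp-/-). The gene ambp encodes the precursor of alpha-1-microglobulin and bikunin. The nature of the lesion, the number, age and sex of the fish and the time since their last meal are not given in the sources used here. With no replicates there is no test and no replicate check. Every difference is between these 2 libraries, and the 95% intervals cover counting error only.

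Estimated reads came to 15659846 for wild type and 18357830 for the knockout. Levels are given as CPM, the count of a gene over the scaled library total. The targeted gene ambp was at 3506 CPM in the wild-type and 154 CPM in the knockout library. Of 17 listed hepatocyte marker genes 16 were measured, meaning at least 1 CPM in a library, and 15 of these lay within 2-fold, ambp being the exception, while cps1 had 0 reads in both libraries. Their levels summed to 231880 wild-type CPM and 201712 knockout CPM. Their summed reads were 3325820 for wild type and 4043006 for the knockout. As a share of the unscaled read totals above, the knockout sum was slightly the higher, so the direction of the sum depended on the scaling. The median log2 ratio of the 16, knockout over wild type, was -0.38, with 11 below 0 and 5 above. Of the 16, 0 were 2-fold higher and 1 lower, against 5.4% higher and 6.4% lower over all measured genes. The marker hnf4a, at -0.997, was just inside 2-fold. When libraries were scaled by their totals alone, the median of the 16 was -0.13, against 0.22 over all measured genes. Under that scaling 0 of the 16 were 2-fold higher and 1 lower. In whole tissue, fewer cells of a type and less RNA per cell cannot be told apart.

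Of the 9 genes, 7 were measured, and 2 of the 7 were at least 2-fold lower in the knockout library, pck1 and g6pc1. The other 5 lay within 2-fold, and 0 were 2-fold higher. The same rule, a log2 ratio of knockout over wild type computed with a pseudocount of 1 CPM, was applied to all 11634 measured genes, of which 6.4% were 2-fold lower and 5.4% 2-fold higher. For the 857 genes that reached 100 CPM in a library, which include 6 of the 7, the shares were 12.4% lower and 3.5% higher. Scaling by library totals turned the split over all measured genes from 628 higher and 744 lower to 1071 higher and 485 lower, and left the same count of 2 lower and 0 higher among the gluconeogenesis genes. The median log2 ratio of the 7 was -0.33, against -0.00 over all measured genes and -0.21 over those with at least 100 CPM. Together the 9 genes took 1.33% of the wild-type reads and 0.876% of the knockout reads.

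**Figure D1:**
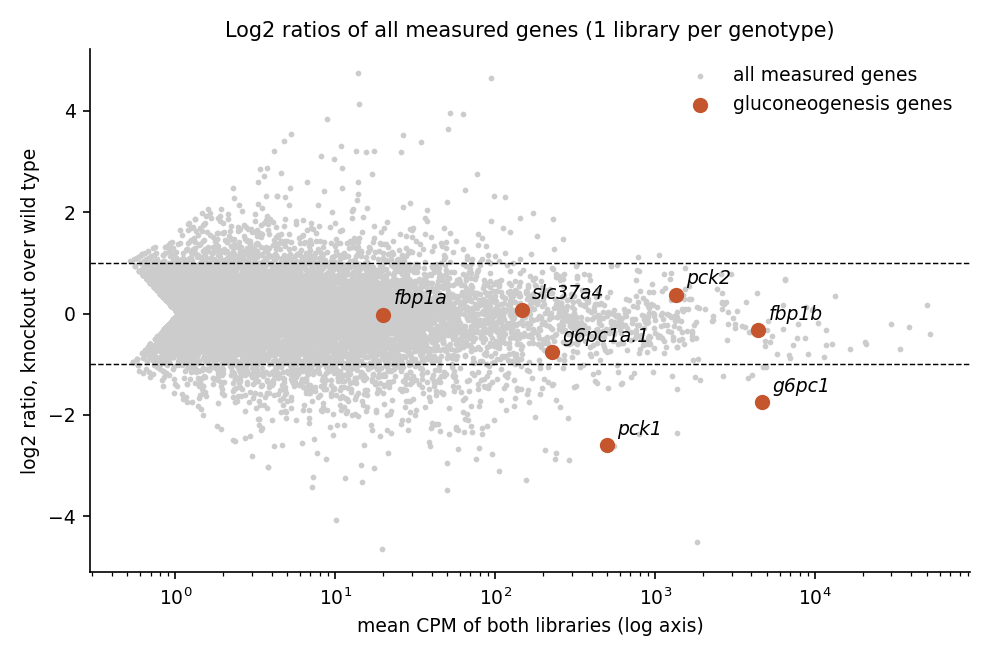
Log2 ratio of knockout over wild type (vertical axis, pseudocount 1 CPM) against the mean CPM of both libraries (horizontal log axis) for 11634 measured genes in grey and the 7 measured gluconeogenesis genes in orange, with dashed lines at 2-fold. The points for pck1 and g6pc1 lie below the lower line, and those for the other 5 lie between the lines.

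The carboxykinase step differed between its copies. The gene pck1 (ENSDARG00000013522) encodes the cytosolic enzyme that turns oxaloacetate into phosphoenolpyruvate, a rate-controlling step of the pathway. It had 12263 wild-type reads and 2818 knockout reads, or 855 CPM (840 to 870) and 141 CPM (135 to 146). The wild-type level was 6.08-fold the knockout level (5.84 to 6.34), a log2 ratio of -2.60. That ratio ranked 32 from the lowest of the 11634 measured genes and 13 from the lowest of the 857 with at least 100 CPM.

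The form that is mitochondrial in mammals, pck2 (ENSDARG00000020956), lay on the other side. It had 16816 wild-type reads and 30351 knockout read, or 1172 CPM (1155 to 1190) and 1514 CPM (1497 to 1531). The knockout level was 1.29-fold the wild-type level (1.27 to 1.32), a log2 ratio of 0.37, within the 2-fold rule. The CPM of pck1 was thus lower, and that of pck2 higher, in the knockout library.

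Per length, the authors' FPKM (fragments scaled to gene length and library size) put wild-type pck1 at 294 and knockout pck1 at 57.7, and pck2 at 315 and 484. On this scale pck1 was at 0.935 of the pck2 level in the wild-type library and at 0.119 in the knockout library. A ratio of 2 genes within a library does not depend on how the libraries are scaled. By reads, the pck1 to pck2 ratio in wild type was 7.85-fold that in the knockout (7.51 to 8.22). The share of pck1 in the summed carboxykinase FPKM was 48.3% in wild type and 10.6% in the knockout.

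Because the copies differed in opposite directions, their sum differed less than pck1 alone. Summed FPKM of pck1 and pck2 was 609 for wild type against 542 for the knockout, 89.0% of the wild-type value as deposited and 74.7% after the same scaling as the CPM. In deposited FPKM, pck1 was lower by 237 and pck2 higher by 170. The scaling raises wild-type and lowers knockout values, so after it the pck1 gap was wider and the pck2 gap narrower. In mammals the products of these copies work in different compartments, which a transcript sum does not show.

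**Figure D2:**
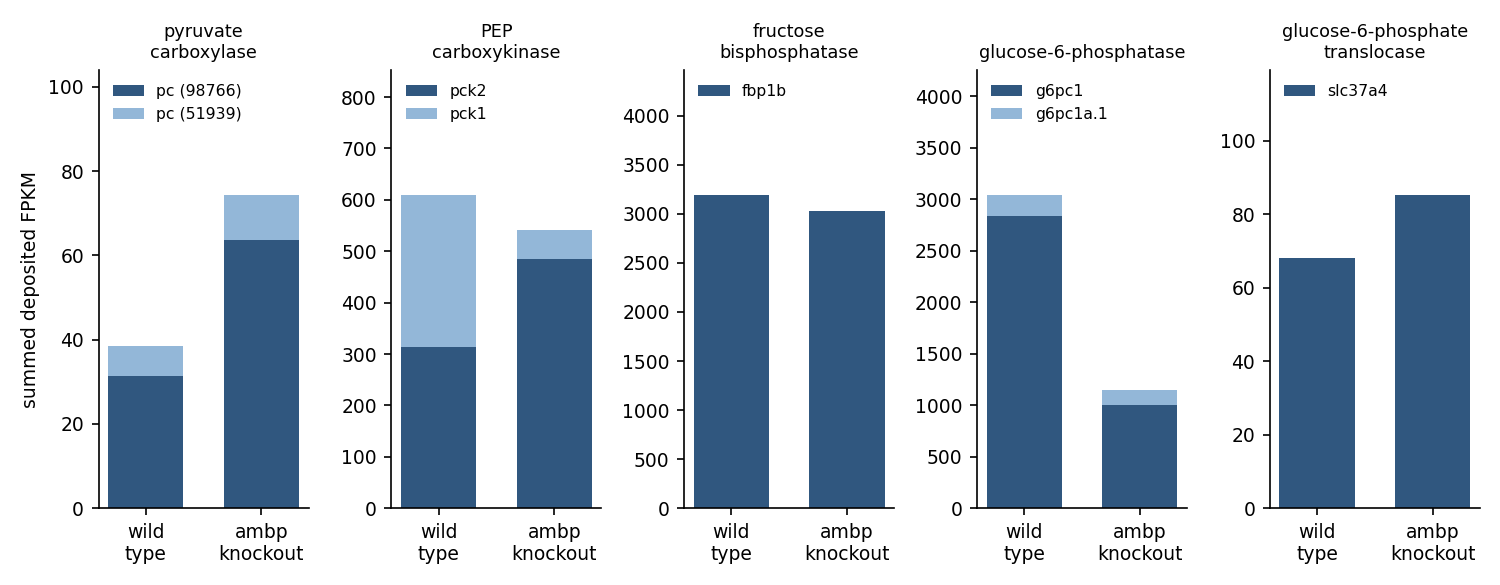
Summed deposited FPKM (vertical axes, each from 0 with its own scale) of the genes for each of 5 steps in the wild-type and knockout libraries, stacked by gene copy, with copies under 0.5% of a step left out and the pc copies marked by the last 5 digits of their identifiers. The carboxykinase bars are of like height, 609 and 542, with the pck1 part going from 48.3% to 10.6%, while the glucose-6-phosphatase bar is 3039 in wild type and 1153 in the knockout.

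Fructose bisphosphatase takes a phosphate off fructose bisphosphate in the cytosol, in opposition to phosphofructokinase. Nearly all of its transcript was fbp1b (ENSDARG00000020364), which made up 99.6% of the step's FPKM in both libraries. It had 70267 wild-type reads and 78152 knockout reads, or 4899 CPM (4863 to 4935) and 3899 CPM (3872 to 3927). The knockout level was 0.796 of wild type (0.788 to 0.804), a log2 ratio of -0.33, or -0.08 when libraries were scaled by their totals. In deposited FPKM, fbp1b was the gene of this group with the highest level in both libraries, at 3188 and 3029, which is rank 36 and rank 34 among all genes.

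The copy fbp1a (ENSDARG00000021366) was low, with 287 wild-type and 395 knockout reads, which is 11.5 and 13.5 in FPKM. Its knockout level was 0.985 of wild type (0.844 to 1.15), an interval that includes 1. The log2 ratio of -0.02 became 0.22 with library totals, so its direction depended on the scaling. In the RefSeq gene order of GRCz12tu, used here for neighbours only, fbp1a lies next to fbp2, the muscle form in mammals, which had 0 wild-type reads and 1 knockout read.

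Glucose-6-phosphatase, whose catalytic subunit frees glucose for release from the liver, was the second step with a lower gene. The abundant copy, g6pc1 (ENSDARG00000013721), had 102937 wild-type reads and 42625 knockout reads, or 7177 CPM (7133 to 7221) and 2127 CPM (2106 to 2147). The wild-type level was 3.37-fold the knockout level (3.34 to 3.41), a log2 ratio of -1.75. Its level rank by FPKM went from 44 in wild type, at 2836, to 122 in the knockout, at 1002. Among the 857 genes with at least 100 CPM its log2 ratio ranked 34 from the lowest.

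The copy g6pc1a.1 (ENSDARG00000031616) had 4094 wild-type reads and 3359 knockout reads, or 285 CPM (277 to 294) and 168 CPM (162 to 173). The wild-type level was 1.70-fold the knockout level (1.63 to 1.78), a log2 ratio of -0.76, in the same direction as g6pc1 and within 2-fold. The ratio of g6pc1 to g6pc1a.1 reads in wild type was 1.98-fold that in the knockout (1.89 to 2.08). These copies are paralogs that may share reads, so the division of reads between them is uncertain.

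The other identifier named g6pc1 (ENSDARG00000014967) had 0 wild-type reads and 1 knockout read, both under a floor of 3 reads, so it gives no fold. The widely expressed relative g6pc3 was near the limit of measurement, with 18 and 35 reads. Over all 4 phosphatase genes the summed FPKM was 3039 for wild type and 1153 for the knockout, 37.9% of wild type as deposited and 31.8% after scaling. The share of g6pc1 in that sum was 93.3% for wild type against 86.9% for the knockout, and that of g6pc1a.1 was 6.68% and 13.0%. For g6pc1a.1 the gene length implied by count and FPKM in the knockout was 94.8% of that in wild type, so its FPKM did not follow its count exactly.

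The transporter slc37a4 (ENSDARG00000038106), which carries glucose-6-phosphate to the phosphatase across the reticulum membrane, did not follow its partner enzyme in these libraries. It had 2042 wild-type reads and 3012 knockout reads, or 142 CPM (136 to 149) and 150 CPM (145 to 156). The knockout level was 1.06-fold wild type (0.998 to 1.12), an interval that includes 1, and the log2 ratio was 0.08, or 0.33 with library totals. By reads, the g6pc1 to slc37a4 ratio in wild type was 3.56-fold that in the knockout (3.36 to 3.77).

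Across steps, ratios within a library do not depend on scaling. Those of pck1 and g6pc1 to fbp1b were chosen with the values of these genes known, so they restate the differences given above. The pck1 to fbp1b ratio by reads in wild type was 4.84-fold that in the knockout (4.64 to 5.05). The g6pc1 to fbp1b ratio was 2.69-fold (2.65 to 2.73). In FPKM, g6pc1 was at 0.889 of fbp1b in wild type and at 0.331 in the knockout. The pck1 to g6pc1 ratio was itself 1.80-fold higher in wild type (1.73 to 1.88), so the difference was larger for pck1.

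**Figure D3:**
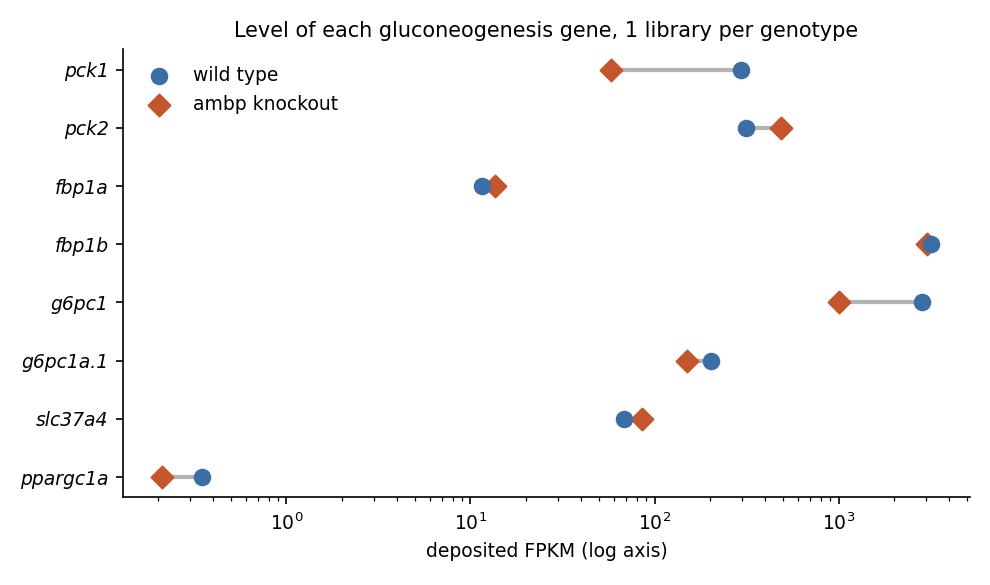
Deposited FPKM (horizontal log axis) of the 8 genes with a value above 0 in both libraries, with circles for wild type and diamonds for the knockout, 1 library each. The symbols lie far apart for pck1 (294 and 57.7) and g6pc1 (2836 and 1002) and close together for fbp1b (3188 and 3029).

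The coactivator gene ppargc1a (ENSDARG00000067829) was scarcely detected. It had 14 wild-type reads and 10 knockout reads, or 0.976 CPM (0.534 to 1.64) and 0.499 CPM (0.239 to 0.918), and did not pass the filter of 1 CPM. The knockout level was 0.511 of wild type with an interval from 0.203 to 1.24, so no difference was detectable at this depth. Its relatives were also low. The gene ppargc1b had 55 wild-type reads and 295 knockout reads (log2 ratio 1.70), and pprc1 had 70 and 11 (log2 ratio -1.92). These were the 2 of 5 measured paralogs past 2-fold, on opposite sides, against 5.4% higher and 6.4% lower over all measured genes. The remaining measured paralogs were g6pc3 at 0.28 and the sugar-phosphate exchangers slc37a1 at -0.56 and slc37a2 at 0.51. For slc37a1 the direction differed by measure, with 88 and 77 reads but 0.94 and 1.17 in deposited FPKM. The gene slc37a4b had 2 wild-type reads and 0 knockout reads.

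Genes that bring carbon into the pathway lay on both sides. The list of pyruvate and oxaloacetate entry held 17 identifiers, of which 14 were measured, 3 were 2-fold higher, 1 was 2-fold lower and 10 lay between, against 5.4% higher and 6.4% lower over all measured genes. The list's median log2 ratio was 0.22. With library totals 5 were higher and 1 lower. That scaling also moved the background, from 628 higher and 744 lower over all measured genes to 1071 and 485, with a median of 0.22. The library-total counts of this list and of the lists below are to be read beside that background. The pyruvate carboxylase genes, both named pc, had 4139 and 9778 reads (ENSDARG00000098766, log2 ratio 0.76) and 616 and 1093 reads (ENSDARG00000051939, log2 ratio 0.34). Their FPKM summed to 38.4 for wild type and 74.3 for the knockout as deposited, and to 41.9 and 68.0 after the same scaling as the CPM. A subunit of the mitochondrial pyruvate carrier, mpc2 (ENSDARG00000037679), had 194 and 907 reads (1.67). Added after their values were seen, the more counted mpc2 copy (ENSDARG00000024478) had 3131 and 8674 reads (0.98) and the subunit gene mpc1 920 and 1277 (-0.01). The citrate carrier slc25a1 (ENSDARG00000076381) had 82 and 487 (1.91). The other 2 past 2-fold, named after their values were seen, were the dicarboxylate carrier slc25a10 (ENSDARG00000025074, 1.33) and slc25a1a, with 36 and 7 reads. The malate dehydrogenases, which move oxaloacetate between compartments as malate, were the most counted, with mdh1 at -0.34 and mdh2 at -0.59.

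The reversible steps shared with glycolysis had 13 measured genes of 18. Of the 13, 0 were 2-fold higher and 0 lower, against 5.4% higher and 6.4% lower over all measured genes. With library totals 1 was higher. Their median log2 ratio was -0.05. Among them gapdh, which is used in both directions of the pathway, had 133898 and 196034 reads (0.07), and eno1 (ENSDARG00000022456) had 73 and 205 reads (0.88).

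Enzymes that work against gluconeogenesis, and kinases that steer pyruvate, had a median log2 ratio of 0.06 over 14 measured genes of 25. Of the 14, 0 were 2-fold higher, 2 lower and 12 between, against 5.4% higher and 6.4% lower over all measured genes. With library totals the split was 1 higher and 1 lower. The liver pyruvate kinase gene pklr, most counted of the list, had 12529 and 19026 reads (0.12). The pyruvate dehydrogenase kinase genes named pdk2 lay on opposite sides, with 2443 and 1279 reads (ENSDARG00000059054, -1.40) and 1638 and 3040 reads (ENSDARG00000020876, 0.41). The related pdk4 had 74 and 194 reads (0.79). The other gene past 2-fold was pfkfb4 (ENSDARG00000029075, -1.15), named after its value was seen. Also chosen after its values were seen, glucokinase, gck, which opposes glucose-6-phosphatase, had 2 wild-type reads and 0 knockout reads.

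Substrate supply genes had a median of 0.16 over 15 measured of 22. Of the 15, 1 was 2-fold higher, 1 lower and 13 between, against 5.4% higher and 6.4% lower over all measured genes. With library totals 3 were higher and 1 lower. The lactate dehydrogenase gene ldhbb had 22106 and 33122 reads (0.10) and the tyrosine aminotransferase gene tat had 18819 and 33906 (0.37). The glycerol channel gene aqp7 had 1045 and 307 reads (-2.18), and the monocarboxylate transporter gene slc16a1 (ENSDARG00000068572) had 199 and 837 (1.52). Glucose exit and glycogen genes had a median of 0.03 over 10 measured of 12, with 1 higher, 0 lower and 9 between, or 2 higher with library totals. Glycogen phosphorylase, pygl, which also feeds the phosphatase, had 9752 and 18655 reads (0.45), pgm1 had -0.54, gbe1 (ENSDARG00000099524) 0.80 and ugp2 (ENSDARG00000005578) 1.09.

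**Figure D4:**
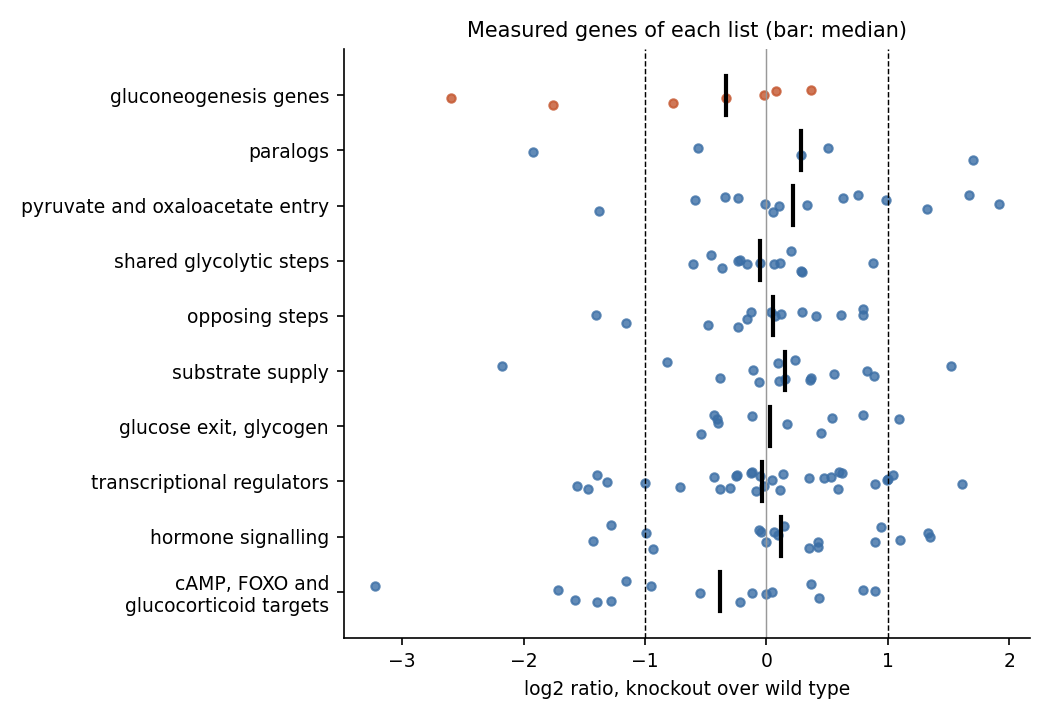
Log2 ratio of knockout over wild type (horizontal axis) for each measured gene of the gluconeogenesis group, in orange, and of 9 other lists, in blue, with a bar at each median and dashed lines at 2-fold. Medians run from -0.38 for the cAMP, FOXO and glucocorticoid targets to 0.28 for the paralogs, and pck1, at -2.60, is lower than all the points drawn but ddit4, at -3.22.

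The list of transcription factors, cofactors and kinase-family genes known in mammals to regulate pck1 and g6pc1 had no common direction. Of 41 identifiers 30 were measured, with a median log2 ratio of -0.04. Of the 30, 3 were 2-fold higher, 4 lower and 23 between, against 5.4% higher and 6.4% lower over all measured genes. With library totals 5 were higher and 4 lower. The insulin-restrained factor gene foxo1 (ENSDARG00000099555) had 1901 wild-type reads and 945 knockout reads (-1.47), and foxo3b had 400 and 176 (-1.56). The hepatocyte factor gene hnf4a had 1668 and 1158 (-0.997), just inside the 2-fold rule. The glucocorticoid receptor gene nr3c1 had 96 and 452 (1.61). Genes past 2-fold, named after their values were seen, also included cebpa (-1.31), trib3 (-1.39) and esrra (20 and 76 reads, higher in the knockout). The ratio of esrra was only just past the 2-fold rule.

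Hormone signalling genes were measured for 18 of 25 identifiers, with a median of 0.12. Of the 18, 3 were 2-fold higher, 2 lower and 13 between, against 5.4% higher and 6.4% lower over all measured genes. With library totals 5 were higher and 2 lower. The glucagon receptor gene gcgra had 309 and 821 reads (0.90) and gcgrb had 13 and 76 (1.33). The insulin receptor genes, both named insr, had 482 and 651 reads (ENSDARG00000011948, -0.05) and 94 and 183 reads (ENSDARG00000071524, 0.42). The regulatory subunit of phosphoinositide kinase, pik3r1, had 6672 and 3463 reads (-1.42). The kinase gene akt2 (ENSDARG00000103612) had 2345 and 3511 (0.10), and the adenylate cyclase gene adcy6 (ENSDARG00000027797) had 29 and 134 (1.35). The other 2 past 2-fold, irs2 (ENSDARG00000037099, -1.28) and prkar1ab (10 and 53 reads), were named after their values were seen.

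Other genes known in mammals to respond to cAMP, FOXO factors or glucocorticoids were measured for 16 of 22 identifiers. Of the 16, 0 were 2-fold higher, 6 lower and 10 between, against 5.4% higher and 6.4% lower over all measured genes. The list's median was -0.38. With library totals the split was 2 higher and 5 lower, and the median was -0.13, against 0.22 over all measured genes. The low side held the stress gene ddit4, with 200 and 12 reads (-3.22), sesn1 with 1400 and 582 (-1.71), and fkbp5, a glucocorticoid-induced gene, with 8655 and 5411 (-1.16). It also held per1 (ENSDARG00000056885, -1.57, named after its value was seen), together with trib3 and irs2, given above. Of the 16 measured, 10 had log2 ratios below 0 and 6 above. Among the rest of the list, tat was at 0.37, klf15 at 0.89 and pdk4 at 0.79, and the insulin-repressed igfbp1 (ENSDARG00000099351) was at -0.22, on 5099 and 6127 reads. With library totals igfbp1 lay just above 0, so its direction depended on the scaling. This list shares tat, pdk4, trib3, sik1, irs2, klf15 and ppargc1a with the other lists.

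The genes most like pck1 were sought by the nearest log2 ratio among named genes with at least 100 CPM in wild type, which is a likeness over 2 libraries. The nearest was ppp1r3g, which encodes a glycogen-targeting subunit of protein phosphatase. It had 13632 wild-type reads and 3095 knockout reads, a log2 ratio of -2.61, and FPKM of 307 and 59.4. The next were crp5 (1963 and 417 reads, -2.66) and the stress gene gadd45g (1471 and 307 reads, -2.67).

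The kidney, intestine and fat of mammals also express some of these enzymes. Defining markers of kidney tubule were at or near 0, with cubn at 2 and 1 reads, lrp2 at 2 and 2, and both slc34a1 identifiers and pax8 at 0 in both libraries. That list's summed level of 261 and 106 CPM was mostly slc20a1 (ENSDARG00000010641), at 205 and 57.4 CPM, and 5 of its 16 genes were measured. Of these 5, 1 was 2-fold higher and 2 lower, against 5.4% higher and 6.4% lower over all measured genes. Of 13 enterocyte genes 5 were measured, the list summed to 292 and 194 CPM, mostly fabp2, and vil1 had 13 and 8 reads while cdx1b and cdx4 had 0. All 5 measured enterocyte genes had log2 ratios below 0, with a median of -0.47. Among them 1 was 2-fold lower, against 6.4% over all measured genes. With library totals the median of the 5 was -0.27, and anpep (236 and 315 reads), at -0.06 here, lay above 0. Of 8 adipocyte genes 4 were measured, all 4 with log2 ratios above 0. Of the 4, 2 were 2-fold higher, against 5.4% over all measured genes. The median of the 4 was 1.12, and the list summed to 50.5 and 101 CPM. Those past 2-fold were the lipid-droplet gene cidec (0 and 192 reads) and the fatty acid binding protein gene fabp4a (98 and 382 reads), while both adipoq identifiers were at 0 and plin1 had 1 and 0 reads.

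Marker levels of some other cell types differed between the libraries. Over all measured genes 5.4% were 2-fold higher and 6.4% lower. Exocrine pancreas genes summed to 382 and 594 CPM, or 46.3 and 372 CPM without amy2al1, and 11 of 13 measured were 2-fold higher. The hormone genes ins and gcga had 1 and 65 reads and 2 and 64 reads. Macrophage markers summed to 286 and 331 CPM, or 35.7 and 92.2 CPM without cd68, and 5 of 9 measured were 2-fold higher. Neutrophil markers summed to 3.21 and 36.2 CPM, or 3.14 and 8.43 CPM without epx, and 2 of 4 measured were 2-fold higher. The genes left out were the most counted of their lists, with log2 ratios of -0.59 for amy2al1, -0.07 for cd68 and 4.75 for epx. Erythroid markers summed to 385 and 209 CPM, with 0 of 5 past 2-fold. No skeletal muscle marker of 11 was measured. The part of these cells in the levels of the gluconeogenesis genes was not tested.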

How the data were processed

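RNA of zebrafish livers was sequenced for wild type and ambp knockout under a high-fat diet, with 1 library per genotype. The labels' protocols give TRIzol extraction, oligo(dT) enrichment and an NEBNext Ultra kit. Of the tools, the submitters' processing notes list HISAT2 and featureCounts, and GRCz11 as the build, with neither version nor role. Estimated counts per gene and FPKM values were deposited, named so per the file headers. Counts were not whole for 5.45% and 6.01% of genes and were rounded. Of the sample columns 4 were used and 0 left unmatched.

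The Ensembl name table gave symbols for 23499 of 25939 identifiers. Listed zebrafish names were matched by name, then without the paralog letter, then by a deposited symbol held by a single identifier, and 12 of 203 entries of the gluconeogenesis and pathway lists and 27 of 127 entries of the marker lists stayed unmatched. Because of the second step, several identifiers can share a name.

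Library totals were scaled with TMM factors of 0.916 and 1.09 from edgeR 4.0.16 in R 4.3.3, so that a wild-type read was worth 0.0697 CPM and a knockout read 0.0499 CPM. Log2 ratios used a pseudocount of 1 CPM, which understates low genes, and folds used none. Level intervals are exact Poisson, fold intervals exact conditional binomial (Clopper-Pearson), and intervals for the ratio of 2 gene ratios exact conditional, all at 95%. Genes with at least 1 CPM in a library were kept. No test was made, since each group has 1 library. The interval method was run on simulated Poisson counts. These hold no variation between fish, so that run covers counting error only.

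Members and lists were chosen with earlier results of these data known. Named genes were the members, ambp, the paralogs, the hormone receptors, the 2 most counted and 2 most different genes (at least 100 reads) of each pathway list, and the 3 genes nearest pck1. Some genes of the lists are not reported here by name. Alternatives were other scalings, including DESeq2 1.42.0 size factors, pseudocounts, filters, fold thresholds and the deposited FPKM.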

Additional observations from a re-analysis of the deposited data

How the results depend on the processing

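The gluconeogenesis count of 2 genes lower and 0 higher was also found with library totals, DESeq2 size factors, totals without the 20 top genes, pseudocounts of 0.1 and 5 CPM, no filter, a 10 CPM filter and deposited FPKM. At 1.5-fold 3 were lower, and at 4-fold 1 was lower, pck1. The all-gene median went to 0.22 for library totals, 0.19 for totals lacking the 20 top genes and 0.19 for FPKM, and values under those settings shift with it. In that order, the log2 ratio of pck1 was -2.34, -2.38 and -2.33, that of g6pc1 was -1.50, -1.54 and -1.50, and the median of the measured members was -0.076, -0.12 and -0.074 (-0.34 with DESeq2 size factors). Over all measured genes, 1071 were higher and 485 lower under library totals. A pseudocount of 0.1 CPM gave 1279 and 1212, and 5 CPM gave 151 and 319. Keeping genes of at least 10 CPM left 227 and 433. The 1.5-fold threshold gave 1904 and 1971, the 4-fold threshold 59 and 91. Without the 20 top genes 987 were higher and 522 lower, and with FPKM 646 were higher and 358 lower. Filters and thresholds alter which genes are counted. Library totals leave out the TMM factors, and a larger pseudocount shrinks the log2 ratios of low genes. The cause of the remaining shifts was not tested. No ratio of 2 genes within a library was planned. The pck1 to pck2 and g6pc1 to fbp1b ratios were added after the data were seen, and the others are likewise descriptions. Length and library size cancel in the 2 named ratios, so their like values by reads and FPKM are fixed by construction. No paired analysis was possible because each group has 1 library, and for the same reason no library could be left out. Depth limits ppargc1a, which at 14 and 10 reads has an interval that includes no difference.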
